A study of Mus musculus with 25 samples.

Results

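The collagen genes are those whose symbol in the probe annotation is Col, a number, a and a number, which gave 42 of the 18193 genes measured. Where a gene had several probe sets, the one with the highest average across the 25 arrays stood for it, and 27 of the 42 had more than 1 probe set. By class they were 11 fibrillar collagens, 6 basement membrane chains of collagen IV, 5 beaded filament chains of collagen VI, 3 short chain collagens, 9 FACITs (fibril-associated collagens with interrupted triple helices), 2 multiplexins, 4 transmembrane collagens and 2 others. Values are deposited log2 expression, and a difference of 1 on that scale is a 2-fold difference.

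The arrays held RNA from plates of 3 immortalized mouse embryonic fibroblast lines, grown to 70% confluence and then serum starved for 24 h. The wild-type line carries Tsc2+/+ and p53-/-, the Tsc2-null line Tsc2-/- and p53-/- and came from a littermate, and the Tsc1-null line Tsc1-/- with intact p53 and immortalization by the 3T3 protocol. Tsc1 and Tsc2 form the complex that restrains the growth kinase complex mTORC1, and rapamycin inhibits mTORC1. Each line had 3 arrays under the solvent DMSO (vehicle, 24 h), and each null line had 2 arrays at each of 2, 6, 12 and 24 h of 20 nM rapamycin, which makes 11 groups. Wild-type cells under rapamycin were not analysed here. Each genotype is 1 line, so genotype and line cannot be told apart, and p-values measure the spread between plates of a line, which the labels call biological replicates.

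Collagens are secreted proteins built of 3 chains wound into a triple helix, and fibroblasts are their main source in connective tissue. Fibrillar collagens form the banded fibrils that give tissue its strength, collagen IV forms the sheet of basement membranes, collagen VI forms fine beaded filaments near cells, and FACITs sit on the surface of fibrils. Some types, among them collagens I, IV, V and VI, are assembled from chains of several genes, and others from chains of a single gene.

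Array medians lay between 6.26 and 6.41, and arrays of a group had correlations across probe sets of 0.996 to 0.998. Fibroblast markers were present: 9 of 9 measured genes lay above 6.67, the 40th percentile of gene means, in every group, and their median level over the arrays ran from 10.97 to 12.72. Among them Thy1 differed most from wild type, with means of 10.79, 6.83 and 7.64 in wild-type, Tsc2-null and Tsc1-null vehicle cells. The markers did not all go one way, at a limma adjusted p under 0.05. In Tsc2-null cells Vim, Pdgfra, Pdgfrb, Thy1, Prrx1, Twist1 and S100a4 were lower than wild type, Dcn higher and Fn1 neither. In Tsc1-null cells Vim, Pdgfrb, Thy1, Twist1, S100a4 and Dcn were lower and Fn1, Pdgfra and Prrx1 higher. Of 7 chondrocyte markers 0 to 2 lay above 6.67, of 4 osteoblast markers 1 or 2, of 6 endothelial markers 1, and of 6 macrophage markers 1 or 2. Of 7 epithelial markers 3 to 6 did so, and Cdh1 stood at 3.85, 8.04 and 3.95 in the 3 vehicle groups. Of the 42 collagens, 32 had a mean above 6.67 in at least 1 group. The other 10 were dim in every group, namely Col4a3, Col4a4, Col6a5, Col10a1, Col9a2, Col19a1, Col13a1, Col17a1, Col23a1 and Col26a1.

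**Figure D1:**
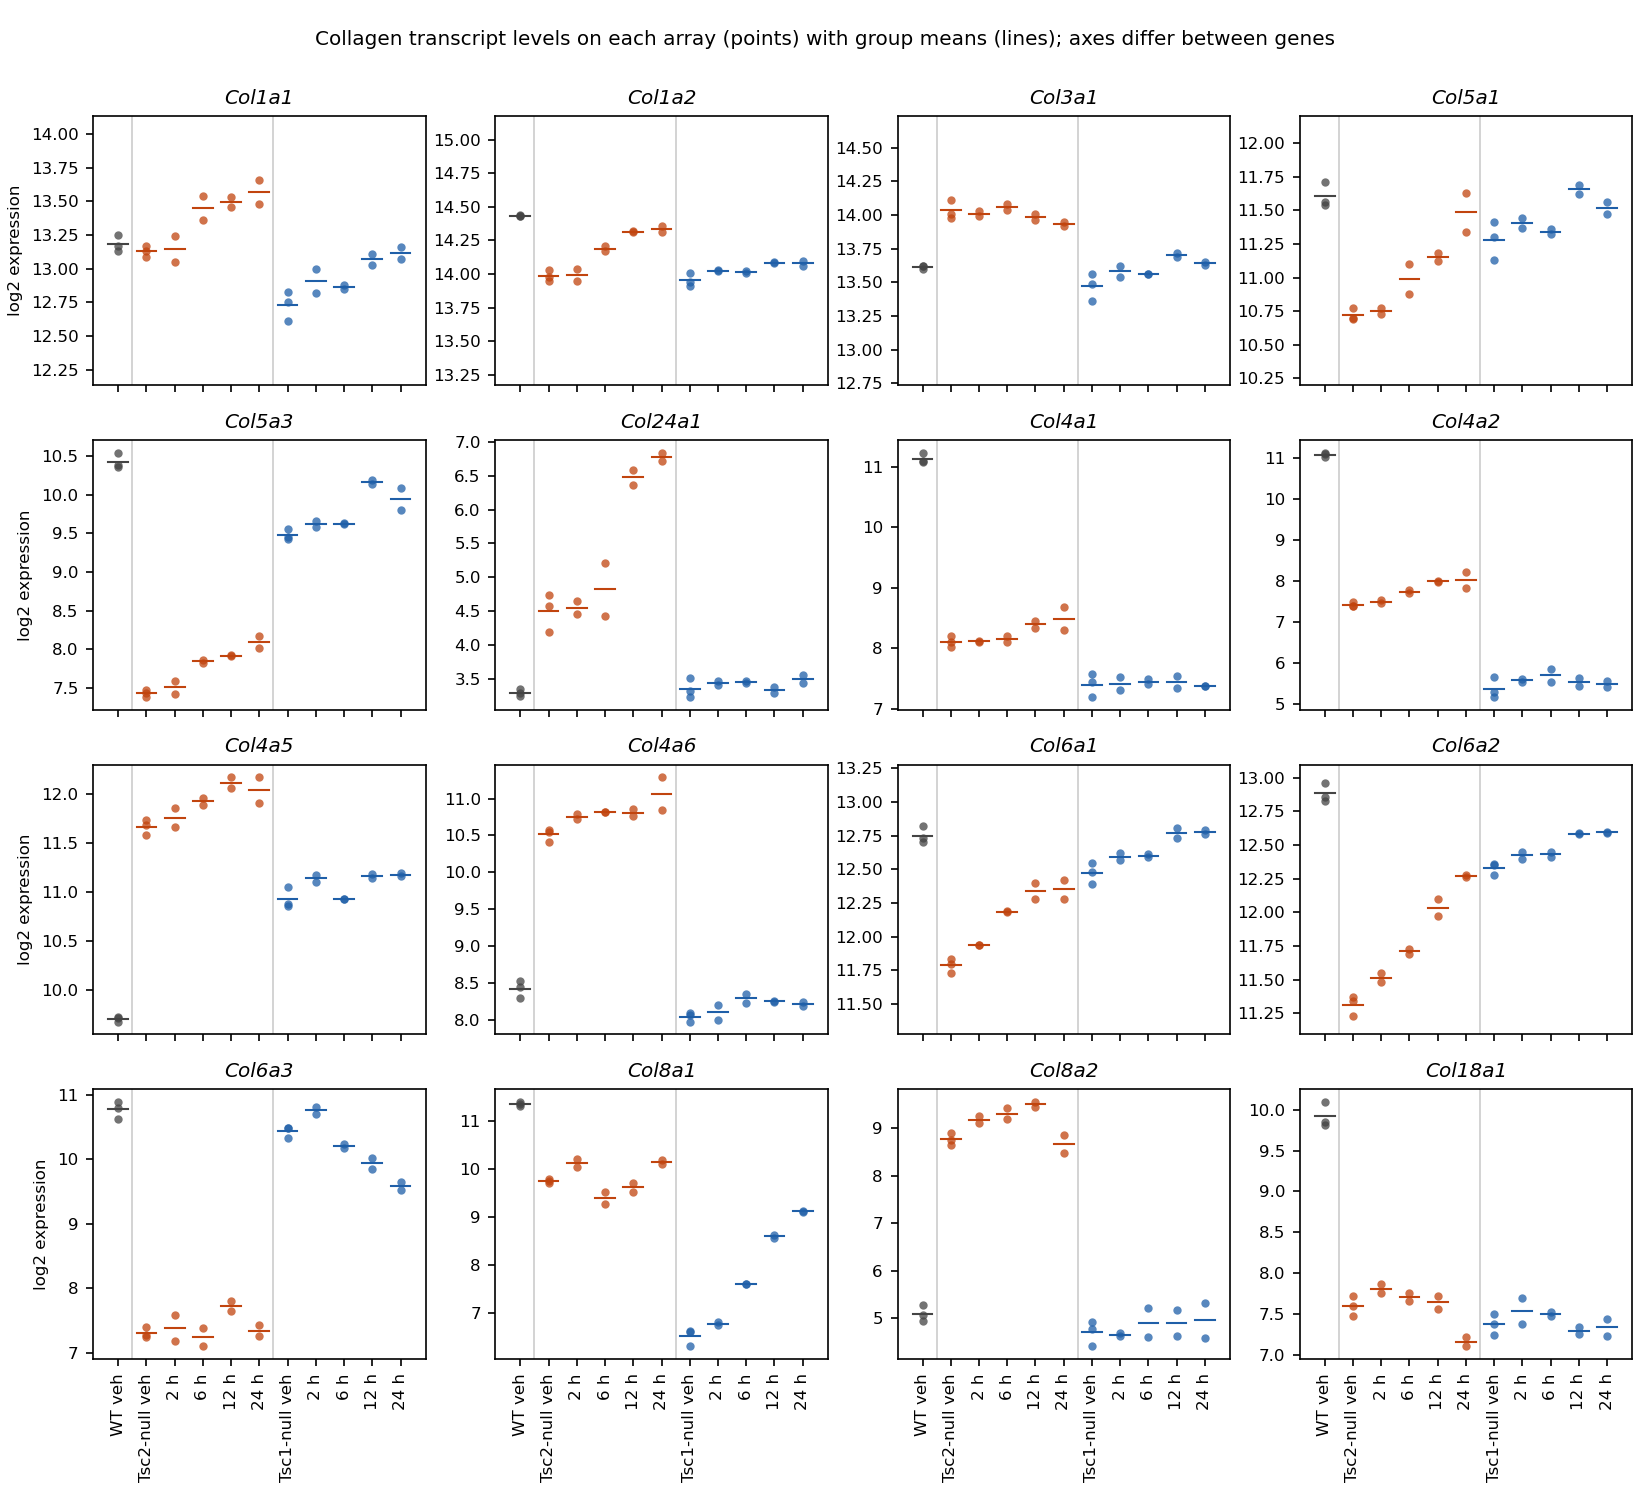
Log2 expression (vertical axes, each gene on its own range) of 16 collagen genes on each array (points) with group means (lines), for wild-type vehicle (grey) and for vehicle and 2, 6, 12 and 24 h of rapamycin in Tsc2-null (orange) and Tsc1-null (blue) cells. Col4a1 and Col4a2 lie lower on every null-line array than on every wild-type array, and Col8a1 in the Tsc1-null line climbs from 6.51 under vehicle to 9.12 at 24 h of rapamycin.

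Under vehicle, 8 of the 42 collagens were higher and 14 lower in Tsc2-null than in wild-type cells, at an adjusted p under 0.05. These 22 are 52.4% of the collagens, while 45% of all 18193 genes were called in that comparison, 23.6% higher and 21.3% lower. In Tsc1-null cells 2 were higher and 19 lower than in wild type, together 50%, against 42% of all genes, 21.3% higher and 20.8% lower. Between the null lines 8 were higher and 12 lower in Tsc1-null cells, 47.6% against 43.3% of all genes, 20.7% higher and 22.7% lower. The shares called in either direction were thus near those of all genes, and in Tsc1-null cells more of the calls were lower. Changes of at least 2-fold in either direction took 13, 6 and 10 of the 42 collagens in the 3 comparisons, against 9.22%, 8.07% and 9.16% of all genes. At that size the share of the collagens was the larger in each comparison. The median difference over the collagens was -0.07, -0.21 and -0.05, where that over all genes was -0.015, -0.017 and 0. The comparisons with wild type share its 3 arrays.

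**Figure D2:**
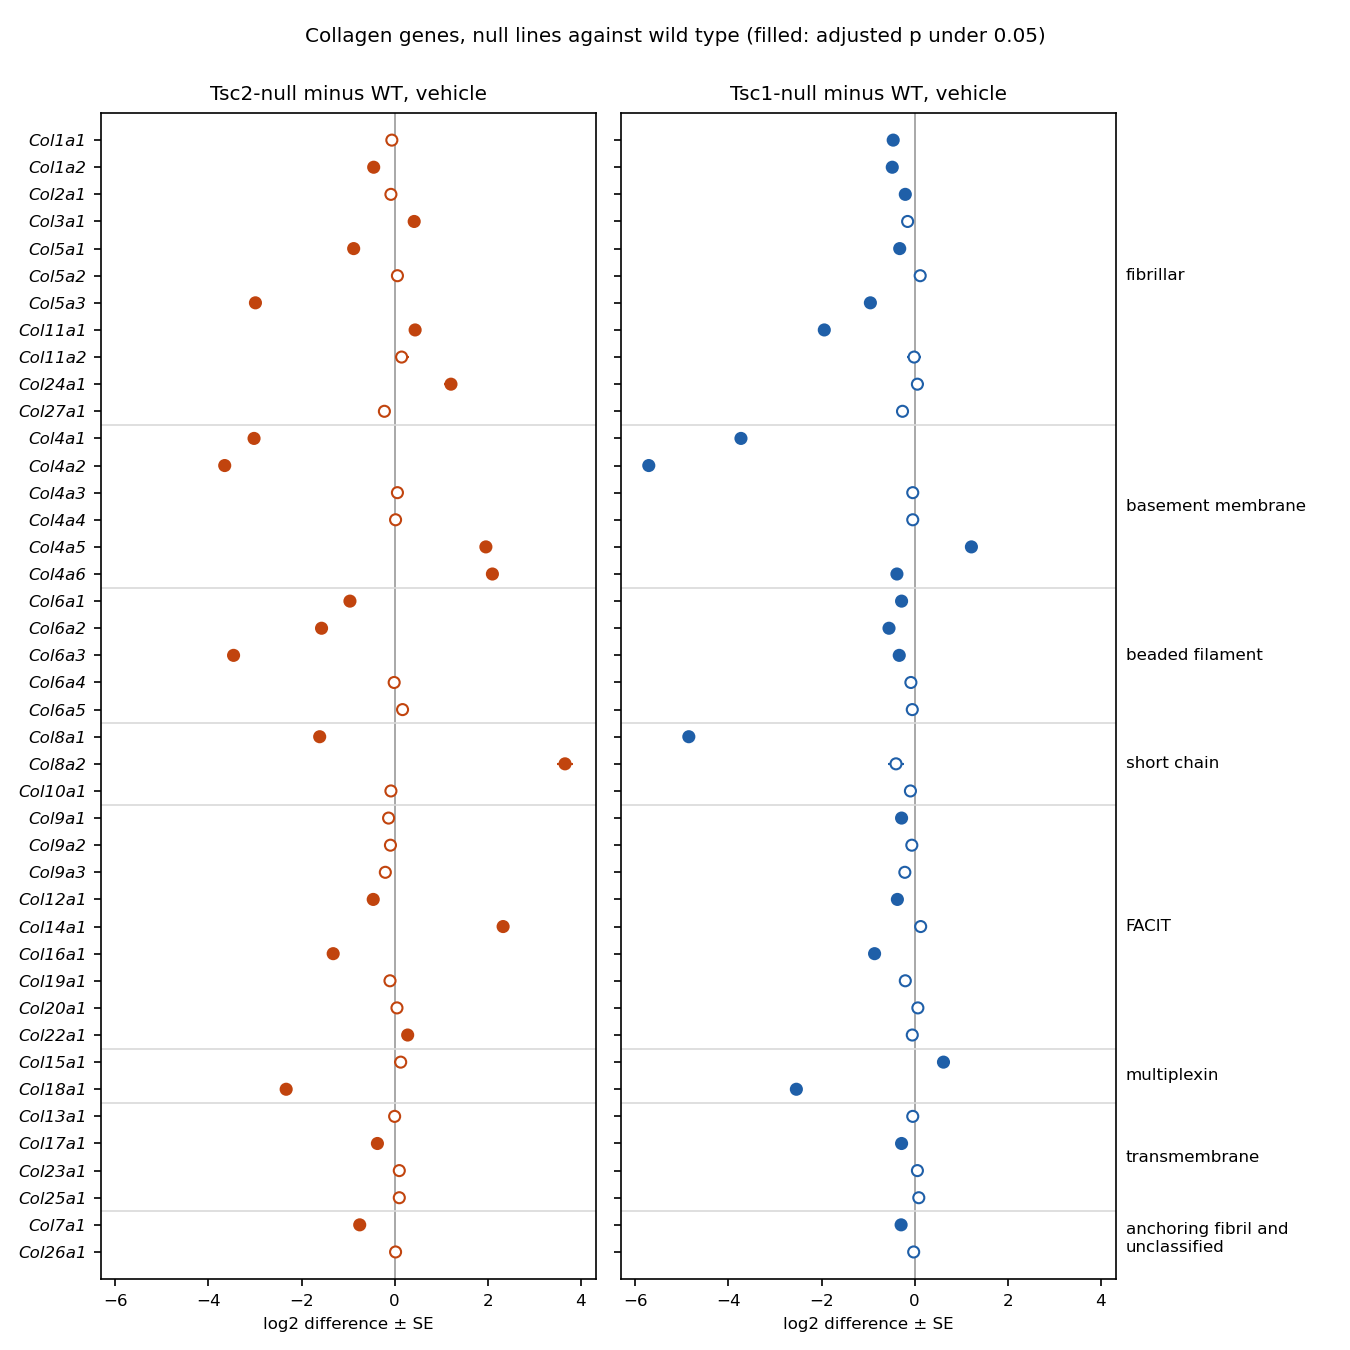
Log2 difference (horizontal axes, with the fitted standard error as a bar, mostly within the point) of each of the 42 collagen genes between each null line and wild type under vehicle, ordered by class; filled points have an adjusted p under 0.05. Col4a2 stands at -3.65 and -5.71, and Col8a2 at 3.66 in the Tsc2-null panel; the sizes of -5.71 and 3.66 rest on values under 6.67 in 1 of the groups compared.

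Col4a1 and Col4a2 encode the chains of the collagen IV found in nearly all basement membranes, and both were far lower in the null lines. Col4a1 read 11.23, 11.08 and 11.09 on the wild-type arrays, 8.11, 8.20 and 8.03 on the Tsc2-null arrays and 7.57, 7.44 and 7.19 on the Tsc1-null arrays. Col4a2 read 11.13, 11.02 and 11.09 in wild type, 7.38, 7.50 and 7.40 in Tsc2-null and 5.16, 5.67 and 5.30 in Tsc1-null cells. The 3 lines did not overlap for either gene on these probe sets. The Tsc1-null values of Col4a2 lay under the dim line of 6.67, so the size of a difference from them is uncertain. The Col4a1 difference from wild type was -3.02 (SE 0.10) in Tsc2-null and -3.73 (SE 0.10) in Tsc1-null cells, with adjusted p = 8.5e-17 and 2.26e-18. For Col4a2 it was -3.65 (SE 0.11, 12.6-fold) and -5.71 (SE 0.11), with adjusted p = 2.26e-17 and 1.14e-20. In the authors' deposited ratio table, which floors low values, the Col4a2 differences were -3.27 and -3.31. How it floors them is not stated, and it reaches above 6.67, since Col25a1 with a mean of 7.68 is 0 there on all arrays. A second Col4a1 probe set gave -3.76 and -6.97. Between the null lines the Tsc1-null minus Tsc2-null difference was -0.71 (adjusted p = 2.97e-06) for Col4a1 and -2.05 (6.11e-13) for Col4a2. In the authors' deposited ratio table neither passed the test, with -0.21 (adjusted p = 0.083) and -0.04 (adjusted p = 0.645). Its floor can hide a difference between low values, so it cannot decide the order. The order of the null lines thus rests on the expression table.

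The annotated starts of Col4a1 and Col4a2 lie 21 bases apart on opposite strands of chromosome 8. On the plus strand Col4a2 starts at 11312805, and on the minus strand Col4a1 starts at 11312826, so the transcripts overlap. The 250 bases before each start, which do not overlap, thus lie downstream of the other gene's start. They are shown because the pair was low together, above those of the other collagen IV pair on the X chromosome. They are RefSeq promoter windows of GRCm38.p6, written 5′ to 3′ on the gene's strand, at chr8:11312827-11313076 (minus) for Col4a1, chr8:11312555-11312804 (plus) for Col4a2, chrX:141475169-141475418 (plus) for Col4a5 and chrX:141474077-141474326 (minus) for Col4a6. Capitals mark CCAAT and GGGCGG on either strand.
Col4a1: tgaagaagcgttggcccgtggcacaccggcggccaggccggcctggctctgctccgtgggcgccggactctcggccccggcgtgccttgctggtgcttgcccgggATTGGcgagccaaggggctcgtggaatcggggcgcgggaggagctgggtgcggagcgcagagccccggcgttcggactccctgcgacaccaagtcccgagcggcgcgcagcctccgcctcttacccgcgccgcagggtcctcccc
Col4a2: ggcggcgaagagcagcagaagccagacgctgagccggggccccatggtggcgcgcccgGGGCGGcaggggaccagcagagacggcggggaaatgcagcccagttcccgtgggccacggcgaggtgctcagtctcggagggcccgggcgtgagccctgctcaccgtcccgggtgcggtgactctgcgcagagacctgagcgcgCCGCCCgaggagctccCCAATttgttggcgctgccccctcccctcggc
Col4a5: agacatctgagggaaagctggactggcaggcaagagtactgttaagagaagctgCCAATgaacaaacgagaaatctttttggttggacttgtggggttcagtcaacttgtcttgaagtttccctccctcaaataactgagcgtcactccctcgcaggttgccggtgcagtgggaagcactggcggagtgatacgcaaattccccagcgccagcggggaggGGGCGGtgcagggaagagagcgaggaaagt
Col4a6: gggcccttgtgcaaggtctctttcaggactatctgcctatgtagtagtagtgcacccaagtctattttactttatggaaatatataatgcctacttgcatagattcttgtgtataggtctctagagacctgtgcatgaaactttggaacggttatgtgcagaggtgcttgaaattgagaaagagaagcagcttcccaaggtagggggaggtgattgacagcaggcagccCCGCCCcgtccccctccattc

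CCAAT was present in 33.8% of 32851 promoter windows of that length and in 13 of the 33 collagen genes with a window. GGGCGG was present in 32.7% of all windows and 20 of the 33 collagen genes, and TATAAA, which these 4 windows lack, in 12.4% and 5 of 33. The share over all is counted by window, while a collagen gene counted if any of its windows matched. Col6a2, Col9a1 and Col18a1 had more than a single window. A match describes the letters only.

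Col4a5 and Col4a6, the chains of a more restricted collagen IV, start 1343 bases apart on opposite strands. Col4a5 read 9.73, 9.68 and 9.72 in wild type, 11.68, 11.73 and 11.58 in Tsc2-null and 11.05, 10.86 and 10.88 in Tsc1-null cells. It was higher than wild type by 1.96 (SE 0.08) and 1.22 (SE 0.08), with adjusted p = 1.32e-15 and 6.45e-12, and the groups did not overlap. Col4a6 read 8.53, 8.44 and 8.29 in wild type, 10.55, 10.58 and 10.41 in Tsc2-null and 8.09, 7.97 and 8.06 in Tsc1-null cells. The pair thus went the same way in the Tsc2-null line, where Col4a6 was higher by 2.10 (SE 0.09, adjusted p = 1.28e-14), and opposite ways in the Tsc1-null line, where the Col4a6 difference was -0.38 (SE 0.09, adjusted p = 0.00178). A second probe set gave 1.89 and 1.20 for Col4a5, and a second one gave 2.40 and -0.38 for Col4a6, in the Tsc2-null and Tsc1-null lines. The remaining collagen IV chains of the kidney glomerulus, Col4a3 and Col4a4, were dim, with group means that passed no test between lines. Of the 7 epithelial markers Cdh1 (4.19) and Krt14 (0.74) were called higher in the Tsc2-null line than in wild type and Krt18 (-1.60) and Epcam (-0.39) lower, while 3 were not called. The median of the 7 markers on the vehicle arrays was 6.74 to 7.13 for wild type, 7.04 to 7.12 for the Tsc2-null line and 6.33 to 6.55 for the Tsc1-null line. The part of these markers in the Col4a5 and Col4a6 levels was not tested.

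The chains of collagen VI, Col6a1, Col6a2 and Col6a3, were all lower than wild type in both null lines, by very unequal amounts. Col6a3 read 10.89, 10.79 and 10.63 in wild type, 7.40, 7.25 and 7.28 in Tsc2-null and 10.49, 10.49 and 10.33 in Tsc1-null cells. The Tsc2-null arrays stood apart, and the difference was -3.46 (SE 0.10, adjusted p = 9.02e-18) against -0.33 (SE 0.10, adjusted p = 0.0105) in Tsc1-null cells. The latter call was lost without wild-type replicate 1 (-0.27, adjusted p = 0.0597) or Tsc1-null replicate 3 (-0.28, adjusted p = 0.0587). Col6a1 read 12.82, 12.73 and 12.70 in wild type, 11.83, 11.80 and 11.73 in Tsc2-null and 12.55, 12.48 and 12.39 in Tsc1-null cells. Col6a2 read 12.96, 12.86 and 12.83, then 11.37, 11.34 and 11.23, then 12.35, 12.36 and 12.28 in the same order. No groups overlapped for either gene, and the Tsc2-null arrays were lowest. Col6a1 differed from wild type by -0.96 (SE 0.06, adjusted p = 1.96e-11) and -0.28 (SE 0.06, adjusted p = 0.00109), and Col6a2 by -1.57 (SE 0.06, adjusted p = 1.43e-15) and -0.55 (SE 0.06, adjusted p = 9.24e-08). Between the null lines Col6a3 was higher in Tsc1-null cells by 3.13 (SE 0.10, adjusted p = 6.01e-17), 8.74-fold. Col6a4 and Col6a5, alternative chains of collagen VI, passed no test between lines.

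The short chain collagens of type VIII, network-forming proteins known from vessels and the back of the cornea, differed in order between the lines. Col8a1 read 11.33, 11.37 and 11.41 in wild type, 9.79, 9.76 and 9.72 in Tsc2-null and 6.30, 6.63 and 6.61 in Tsc1-null cells. Its partner chain Col8a2 read 5.06, 5.29 and 4.94 in wild type, 8.89, 8.74 and 8.65 in Tsc2-null and 4.93, 4.77 and 4.41 in Tsc1-null cells. Col8a1 was thus highest in wild type with no overlap among lines, and Col8a2 was high only on the Tsc2-null arrays and under 6.67 on the others. Col8a1 differed from wild type by -1.61 (SE 0.08, adjusted p = 2.39e-13) in Tsc2-null and -4.85 (SE 0.08, adjusted p = 1.05e-21) in Tsc1-null cells, where it was under 6.67 and the authors' deposited ratio table gave -3.95, and 2 further probe sets gave -1.83 and -1.49, and -4.25 and -2.80. Col8a2 was higher in Tsc2-null cells by 3.66 (SE 0.18, adjusted p = 1.01e-13), while in Tsc1-null cells it differed by -0.40 (SE 0.18, adjusted p = 0.0898). In the authors' deposited ratio table, which floors low values, the Col8a2 difference was 1.33. Col10a1, the collagen of hypertrophic cartilage, was dim in all groups.

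The 250 bases before the starts of the type VIII genes are shown because the chains are partners and yet went opposite ways in the Tsc2-null line. They lie at chr16:57754738-57754987 (minus) for Col8a1 and chr4:126286544-126286793 (plus) for Col8a2 in the same RefSeq windows. Capitals mark GGGCGG on either strand, and neither window holds CCAAT or TATAAA.
Col8a1: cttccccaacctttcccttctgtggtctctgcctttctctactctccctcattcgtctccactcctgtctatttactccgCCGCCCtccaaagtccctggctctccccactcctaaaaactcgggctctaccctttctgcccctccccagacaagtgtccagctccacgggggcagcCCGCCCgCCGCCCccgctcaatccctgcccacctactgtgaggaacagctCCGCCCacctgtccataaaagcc
Col8a2: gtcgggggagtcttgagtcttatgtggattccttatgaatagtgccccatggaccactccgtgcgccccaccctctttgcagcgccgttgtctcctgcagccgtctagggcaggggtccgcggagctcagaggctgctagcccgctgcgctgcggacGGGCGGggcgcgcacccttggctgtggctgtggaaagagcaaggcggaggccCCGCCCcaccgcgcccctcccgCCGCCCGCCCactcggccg

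The major fibrillar chains were read by bright probe sets, and that of Col1a2 lay nearest to 14.74, the highest value on the arrays. Their dimmer probe sets gave other sizes. Col1a1 and Col1a2, the chains of collagen I, and Col3a1, the collagen of extensible tissue, were each at 12.61 or more on every vehicle array. Col1a1 read 13.25, 13.17 and 13.13 in wild type, 13.17, 13.13 and 13.09 in Tsc2-null and 12.83, 12.75 and 12.61 in Tsc1-null cells. The Tsc2-null arrays overlapped wild type (difference -0.06, SE 0.08, adjusted p = 0.638), and the Tsc1-null arrays lay below it (difference -0.46, SE 0.08, adjusted p = 4.29e-05). Col1a2 read 14.43, 14.43 and 14.44 in wild type, 13.98, 14.03 and 13.95 in Tsc2-null and 14.01, 13.94 and 13.91 in Tsc1-null cells. Col1a2 was therefore lower in each null line, with differences of -0.45 (SE 0.05, adjusted p = 3.69e-07) and -0.48 (SE 0.05, adjusted p = 1.54e-07), and the null lines overlapped. A further, dimmer Col1a2 probe set gave -2.35 and -1.28. Col3a1 read 13.62, 13.60 and 13.62 in wild type, 14.11, 14.01 and 13.98 in Tsc2-null and 13.56, 13.49 and 13.36 in Tsc1-null cells. It was higher in the Tsc2-null line by 0.42 (SE 0.06, adjusted p = 4.05e-06), and the Tsc1-null difference was -0.15 (SE 0.06, adjusted p = 0.061). In the authors' deposited ratio table the Tsc2-null difference was 0.16 (adjusted p = 0.325). A second Col3a1 probe set was higher in both lines, by 1.76 and 0.35.

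Collagen V starts and thins collagen I fibrils, and its 3 genes moved apart. Col5a3 read 10.54, 10.38 and 10.35 in wild type, 7.48, 7.38 and 7.44 in Tsc2-null and 9.45, 9.42 and 9.56 in Tsc1-null cells, with no overlap. It was lower than wild type, with differences of -2.99 (SE 0.08, 7.94-fold, adjusted p = 1.14e-18) and -0.95 (SE 0.08, adjusted p = 6.27e-10). Col5a1 read 11.71, 11.54 and 11.56, then 10.77, 10.69 and 10.70, then 11.41, 11.30 and 11.13 in the same order. Its differences of -0.88 (adjusted p = 6.26e-09) and -0.32 (adjusted p = 0.00297) rest on 1 of 3 probe sets. The other 2 were higher in each null line, by 0.18 and 0.23 in Tsc2-null and by 0.54 and 0.53 in Tsc1-null cells, so no direction against wild type can be given for Col5a1. Between the null lines all 3 probe sets were higher in Tsc1-null cells, by 0.56, 0.36 and 0.30. Col5a1 was the only one of the 27 collagens with several probe sets whose probe sets were called in opposite directions in a comparison with wild type. Col5a2 read 12.53 to 12.80 on the 9 vehicle arrays and passed no test between lines on its brightest probe set, while a second one was higher in both null lines by 0.91 and 0.89.

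Col11a1, a chain of cartilage fibrils also made by embryonic fibroblasts, read 8.80, 8.45 and 8.55 in wild type, 8.99, 9.18 and 8.96 in Tsc2-null and 6.77, 6.76 and 6.45 in Tsc1-null cells. The Tsc1-null arrays were the lowest, with a difference of -1.94 (SE 0.11, adjusted p = 1.2e-12), and Tsc2-null cells were higher than wild type by 0.44 (SE 0.11, adjusted p = 0.00191). Col24a1, a fibrillar collagen of developing bone, read 3.28, 3.35 and 3.24 in wild type, 4.58, 4.74 and 4.19 in Tsc2-null and 3.51, 3.22 and 3.32 in Tsc1-null cells, all under 6.67. Its difference of 1.21 (SE 0.14, adjusted p = 2.48e-07) in the Tsc2-null line was 0 in the authors' deposited ratio table. Col2a1, the chain of cartilage fibrils, was called lower in Tsc1-null cells, with a difference of -0.20 (adjusted p = 0.0305), which no longer passed without wild-type replicate 2 or 3 (-0.19 and -0.18) or Tsc1-null replicate 2 (-0.15). Col11a2 and Col27a1 passed no test between lines.

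Among the FACITs, Col14a1, which binds the surface of fibrils, read 5.89, 6.11 and 5.81 in wild type, 8.24, 8.40 and 8.17 in Tsc2-null and 6.07, 6.10 and 6.04 in Tsc1-null cells. It lay above 6.67 only on the Tsc2-null arrays among those of vehicle, and the difference from wild type was 2.33 (SE 0.13, adjusted p = 5.66e-13). Since the wild-type values are under the dim line, its size is uncertain, and in the authors' deposited ratio table it was 1.10. Col16a1, a FACIT of fibrils and microfibrils, was lower in both null lines, with differences of -1.32 (adjusted p = 3.42e-12) and -0.86 (4.94e-09), and Col12a1, a FACIT of load-bearing tissue, likewise with -0.46 (5.95e-05) and -0.37 (6.45e-04). Col22a1 was higher in Tsc2-null cells by 0.28 (adjusted p = 0.0197), which was lost without wild-type replicate 1 or 3 (0.27 and 0.25) or Tsc2-null replicate 2 (0.17). Col9a1 was lower in Tsc1-null cells, with a difference of -0.28 (adjusted p = 0.035) with overlapping arrays, and leaving out any of 5 of the 6 arrays of that comparison lost the call (adjusted p up to 0.232, without wild-type replicate 2). The remaining 4 FACITs passed no test against wild type.

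Col18a1 and Col15a1 are the multiplexins, basement membrane collagens whose C-terminal ends carry endostatin and a relative of it. Col18a1 read 10.10, 9.85 and 9.81 in wild type, 7.72, 7.59 and 7.47 in Tsc2-null and 7.50, 7.38 and 7.24 in Tsc1-null cells. The wild-type arrays stood above all others, and the null lines differed from them by -2.33 (SE 0.10, adjusted p = 4.53e-15) and -2.54 (SE 0.10, adjusted p = 1.29e-15). Col15a1 read 5.91, 6.40 and 6.56 in wild type, 6.38, 6.48 and 6.41 in Tsc2-null and 6.95, 6.94 and 6.86 in Tsc1-null cells, where it was higher by 0.62 (SE 0.14, adjusted p = 5.64e-04). These values lie near or under 6.67, and the authors' deposited ratio table held Col15a1 at 0 on all arrays. Col7a1, the anchoring fibril collagen of skin, was lower in both lines, with differences of -0.75 (adjusted p = 9.89e-09) and -0.29 (adjusted p = 0.00188). The transmembrane collagens were dim apart from Col25a1, and of the 4 Col17a1 was called, with differences of -0.37 and -0.28.

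Rapamycin in Tsc2-null cells was followed by a gradual rise of many collagens. Of the 42, 1 rose and 0 fell at 2 h, 9 rose and 1 fell at 6 h, 14 rose and 2 fell at 12 h, and 17 rose and 2 fell at 24 h. The shares called were 2.38%, 23.8%, 38.1% and 45.2% of the collagens, against 2.2%, 21.3%, 34.1% and 35.5% of all genes. Of all genes 1.01% were called higher and 1.19% lower at 2 h, 11.6% and 9.69% at 6 h, 16.4% and 17.6% at 12 h, and 17.4% and 18.1% at 24 h. At 12 and 24 h all genes thus divided about evenly between the directions, while most called collagens rose. The 4 times share the line's 3 vehicle arrays. Vehicle was given for 24 h only, so in either null line the earlier times have no vehicle of the same duration. Of the 19 called at 24 h, 13 kept their call when any 1 array was left out and under the other processing settings run on the expression table. The other 6, lost when 1 array was left out, were Col4a1, Col4a5, Col15a1, Col16a1, Col18a1 and Col27a1. At 6 h only 3 of 10 calls held without any 1 array, and the count fell to 5, 6 and 4 without vehicle replicate 3, 6 h replicate 1 and 6 h replicate 2. At 2 h the single call, Col8a1, was lost when any of the 5 arrays was left out.

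The 9 that rose at 6 h were the collagen I, V and VI chains Col1a1 (0.32), Col1a2 (0.20), Col5a1 (0.27), Col5a2 (0.23), Col5a3 (0.41), Col6a1 (0.40) and Col6a2 (0.40), and the collagen IV chains Col4a5 (0.26) and Col4a6 (0.31). All 9 were called at 12 h as well, and Col4a2 (0.57), Col6a3 (0.41), Col12a1 (0.51), Col24a1 and Col8a2 joined them. The calls that held at 6 h when any array was left out were Col5a3, Col6a1 and Col6a2. Without 12 h replicate 1 the 12 h rise of Col6a3 was 0.34 (adjusted p = 0.0901) and that of Col5a2 0.19 (adjusted p = 0.135). Col4a6 lost its 12 h call without vehicle replicate 3 (adjusted p = 0.115) or either 12 h array (0.193 and 0.0612). In the authors' deposited ratio table Col1a1, Col1a2, Col5a2 and Col12a1 passed no test at 12 h, with 0.09, -0.07, 0.18 and 0.13.

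**Figure D3:**
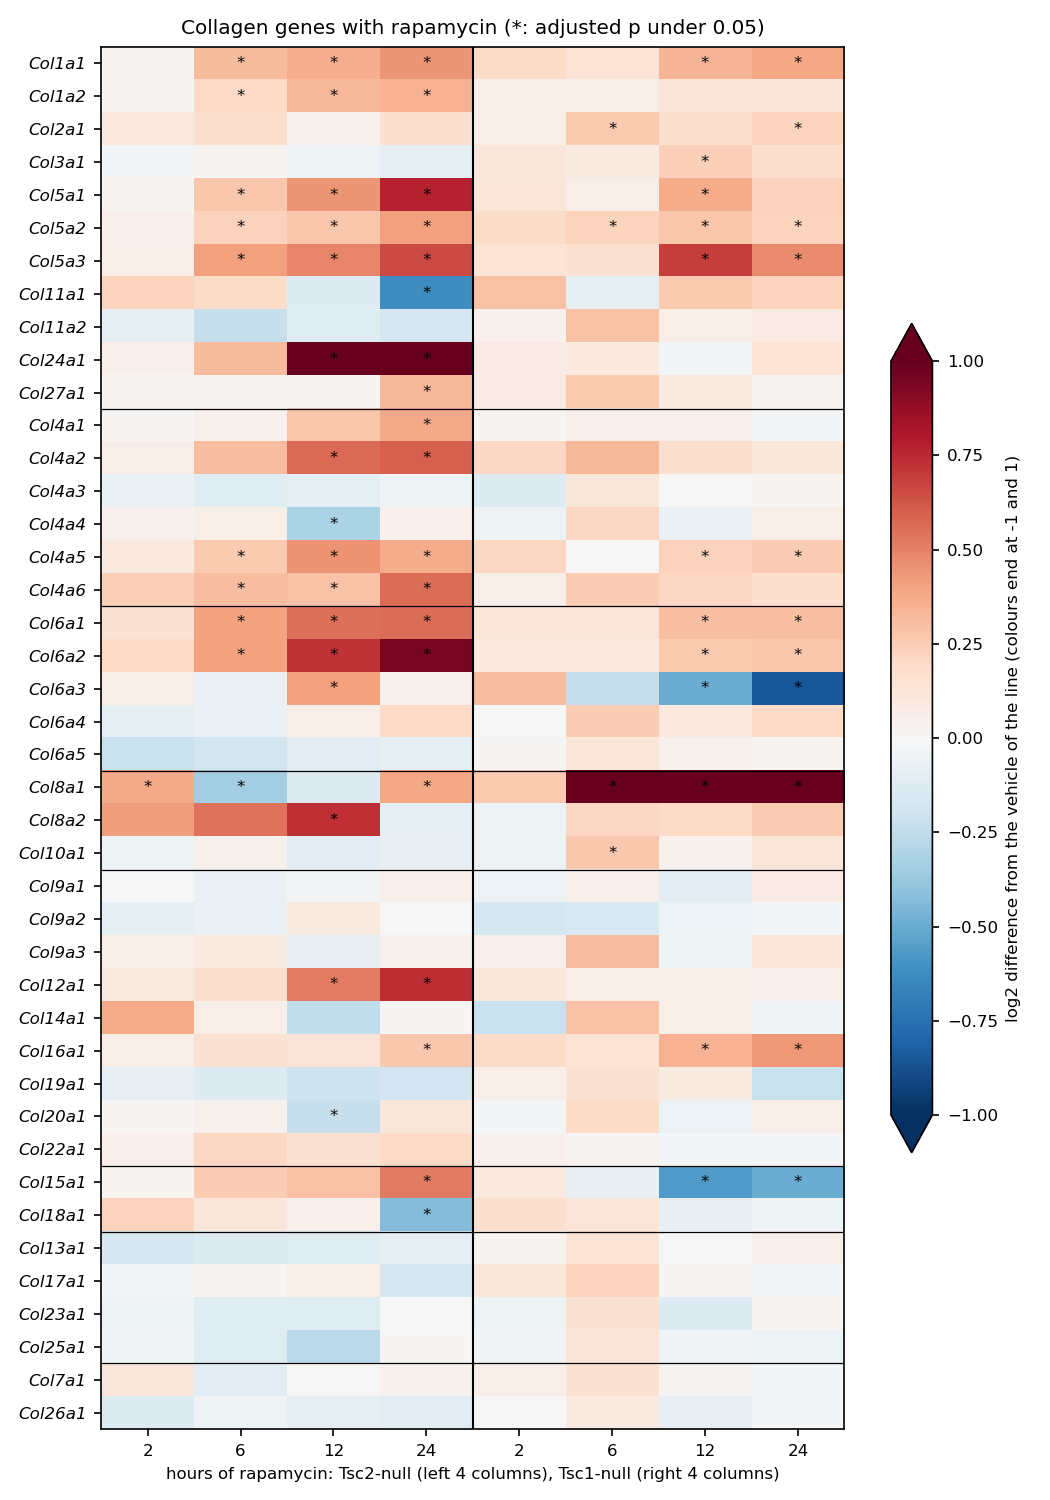
Log2 difference from the vehicle of the same line (colour, ending at -1 and 1) for the 42 collagen genes (rows, by class) at 2, 6, 12 and 24 h of rapamycin in Tsc2-null (left) and Tsc1-null (right) cells; an asterisk marks an adjusted p under 0.05. In the Tsc2-null columns the asterisks grow from 1 at 2 h to 19 at 24 h, and in the Tsc1-null columns Col8a1 rises from 6 h, by 2.61 at 24 h.

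Chains of collagen VI and collagen I were among those that rose in Tsc2-null cells. Col6a2 read 11.55 and 11.48 at 2 h, 11.73 and 11.69 at 6 h, 12.10 and 11.97 at 12 h, and 12.28 and 12.26 at 24 h, against 11.37, 11.34 and 11.23 under vehicle. Each later time lay above the one before, with no overlap of arrays, and the difference at 24 h was 0.95 (SE 0.07, 1.94-fold, adjusted p = 2.28e-10). Col6a1 read 12.42 and 12.28 at 24 h, higher by 0.56 (SE 0.07, adjusted p = 1.32e-06), while Col6a3 at 7.26 and 7.43 stayed within the vehicle range or just above it (0.04, SE 0.11, adjusted p = 0.868). Col1a1 read 13.66 and 13.48 and Col1a2 14.36 and 14.31 at 24 h, above all vehicle arrays of the line. They rose by 0.44 (SE 0.09, adjusted p = 3.28e-04) and 0.35 (SE 0.06, adjusted p = 6.89e-05), and in the authors' deposited ratio table by 0.52 (adjusted p = 0.0115) for Col1a1, while Col1a2 had 0.36 (adjusted p = 0.117). Col3a1 at 13.95 and 13.92 was not called (-0.10, adjusted p = 0.311).

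Collagen V rose with collagen I in this line. Col5a1 read 11.63 and 11.34 at 24 h, higher by 0.77 (SE 0.09, adjusted p = 6.58e-07), and its 3 probe sets, which disagreed between lines, all rose here (0.77, 0.52 and 0.57). Col5a3 read 8.17 and 8.02, higher by 0.66 (SE 0.09, adjusted p = 1.65e-06), and Col5a2 13.10 and 13.00, higher by 0.41 (SE 0.08, adjusted p = 1.18e-04). For these 3 genes no 24 h value overlapped the vehicle arrays. Col5a3 at 24 h still lay more than 2 log2 units under its wild-type arrays.

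Col24a1 rose late in Tsc2-null cells, from values under the dim line. It read 4.45 and 4.65 at 2 h, 4.43 and 5.21 at 6 h, 6.59 and 6.36 at 12 h, and 6.72 and 6.84 at 24 h, from 4.19 to 4.74 under vehicle. The arrays at 12 and 24 h stood clear of all earlier ones. The rise was 1.97 (SE 0.16, adjusted p = 3.79e-09) at 12 h and 2.28 (SE 0.16, adjusted p = 1.96e-10) at 24 h. Even then Col24a1 stood near 6.67, and in the authors' deposited ratio table its rise was 0 at 12 h and 0.55 (adjusted p = 2.16e-07) at 24 h.

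The collagen IV chains rose slightly. At 24 h Col4a2 read 8.22 and 7.83, higher by 0.60 (SE 0.13, adjusted p = 5.48e-04), and Col4a6 11.29 and 10.84, higher by 0.56 (SE 0.10, adjusted p = 1.49e-04). Col4a1 read 8.68 and 8.30, a rise of 0.38 (SE 0.11, adjusted p = 0.0103) that was 0.19 (adjusted p = 0.34) without 24 h replicate 1 and -0.1 in the authors' deposited ratio table. Col4a5 read 11.91 and 12.17, a rise of 0.37 (adjusted p = 0.00112) that was 0.24 (adjusted p = 0.0693) without 24 h replicate 2. These changes are small beside the differences between lines, since Col4a1 and Col4a2 in wild-type cells read 11.02 or more. Among the epithelial markers Krt18 had a mean of 7.70 under vehicle and 9.80 at 24 h, and the median of the 7 markers was 7.04 to 7.12 and 7.68 to 7.71 on the same arrays. Their part in the rise was not tested.

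Col12a1 read 8.55 and 8.64 at 24 h against 7.92, 7.84 and 7.82 under vehicle, higher by 0.74 (SE 0.09, adjusted p = 9.42e-07). Another of its 4 probe sets was higher by 1.54, and the rest are not given here. Falls were few. Col11a1 read 8.56 and 8.27 at 24 h, below its vehicle arrays (difference -0.62, SE 0.12, adjusted p = 2.74e-04), and Col18a1 read 7.10 and 7.22, with a difference of -0.43 (SE 0.11, adjusted p = 0.00284). The Col18a1 call was lost without 24 h replicate 1 (-0.37, adjusted p = 0.0511). The gene's difference was 0 in the authors' deposited ratio table, whose floor can hide a change between low values. Col8a1 did not keep 1 direction: it rose by 0.38 at 2 h (adjusted p = 0.0326), fell by 0.35 at 6 h (adjusted p = 0.00851) and stood higher by 0.39 at 24 h (adjusted p = 0.00188). Its 6 h call was lost without 6 h replicate 2 (-0.23, adjusted p = 0.181). Col8a2 read 9.44 and 9.55 at 12 h, higher by 0.73 (SE 0.20, adjusted p = 0.00668), and 8.85 and 8.47 at 24 h, within or just below the vehicle range. The 12 h call was lost without 12 h replicate 2 (0.68, adjusted p = 0.0631). Smaller calls at 24 h were Col15a1 (0.52), Col27a1 (0.33) and Col16a1 (0.27), and the 12 h falls were the dim Col4a4 (-0.32) and Col20a1 (-0.23), neither of which held without 12 h replicate 1 (-0.17 and -0.15).

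In Tsc1-null cells fewer collagens moved. At 2 h 0 of 42 were called, at 6 h 4 rose, at 12 h 10 rose and 2 fell, and at 24 h 9 rose and 2 fell. These are 0%, 9.52%, 28.6% and 26.2% of the collagens, against 3.26%, 22.5%, 23.7% and 29.6% of all genes. Of all genes 1.95% were called higher and 1.32% lower at 2 h, 9.5% and 13% at 6 h, 12% and 11.7% at 12 h, and 11.6% and 18% at 24 h. With every probe set tested, 3 collagens were called at 2 h, and 6 of the 42 had an unadjusted p under 0.05 in limma. The free-text label of the 24 h arrays says 14 h and that of the 12 h arrays 11 h, but their titles and times read 24 h and 12 h and were followed here. Leaving out 12 h replicate 2 reduced the 12 called at 12 h to 4, and leaving out 6 h replicate 2 the 4 called at 6 h to 2.

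Col8a1, the network-forming chain of collagen VIII, rose at 6, 12 and 24 h in Tsc1-null cells. It read 6.80 and 6.74 at 2 h, 7.61 and 7.60 at 6 h, 8.63 and 8.57 at 12 h, and 9.13 and 9.11 at 24 h, from 6.30, 6.63 and 6.61 under vehicle. No arrays of successive times overlapped. From a vehicle level under 6.67, the rise was 1.09 (SE 0.09, adjusted p = 4.89e-08) at 6 h, 2.08 (SE 0.09, adjusted p = 1.1e-12) at 12 h and 2.61 (SE 0.09, adjusted p = 1.6e-14) at 24 h. Its other 2 probe sets rose by 1.88 and 0.60 at 24 h, and the authors' deposited ratio table gave 0 at 6 h and 1.30 at 24 h. At 24 h the level still lay below the 11.33 to 11.41 of wild-type vehicle cells.

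Col6a3 fell at 12 and 24 h in Tsc1-null cells while its partner chains rose. It read 10.70 and 10.81 at 2 h, above all vehicle arrays though not called (0.31, adjusted p = 0.157). It then read 10.18 and 10.24 at 6 h, 9.85 and 10.02 at 12 h, and 9.53 and 9.65 at 24 h, from 10.33 to 10.49 under vehicle. The difference was -0.50 (SE 0.11, adjusted p = 0.00183) at 12 h and -0.85 (SE 0.11, 1.80-fold, adjusted p = 3.7e-06) at 24 h. Col6a1 read 12.79 and 12.76 and Col6a2 12.60 and 12.59 at 24 h, higher by 0.30 (SE 0.07, adjusted p = 0.00203) and 0.27 (SE 0.07, adjusted p = 0.00405), with no overlap with vehicle. With only the compared groups in the fit the Col6a2 call was lost (0.27, adjusted p = 0.0508). In the authors' deposited ratio table Col6a1 and Col6a2 both had 0.21 (adjusted p = 0.0792 and 0.1).

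Among fibrillar chains in this line, Col5a3 read 10.19 and 10.14 at 12 h and 9.80 and 10.09 at 24 h, higher by 0.69 (SE 0.09, adjusted p = 2.64e-06) and 0.47 (SE 0.09, adjusted p = 1.81e-04). Col1a1 read 13.07 and 13.16 at 24 h, higher by 0.39 (SE 0.09, adjusted p = 0.00152), and Col1a2 14.10 and 14.06, a difference of 0.13 (SE 0.06, adjusted p = 0.147). Both genes lay above their vehicle arrays, though only Col1a1 passed the test. The Col1a1 call was lost on the mean of all its probe sets (0.30, adjusted p = 0.0609) and in the authors' deposited ratio table (0.13, adjusted p = 0.594). Col5a2 rose by 0.22 (adjusted p = 0.0319), a call lost without vehicle replicate 2 or 3 (0.23 and 0.16) or either 24 h array (0.18 and 0.25). Col3a1 and Col5a1 rose at 12 h, by 0.24 (adjusted p = 0.0121) and 0.37 (adjusted p = 0.00425), and at 24 h stood at 0.17 and 0.23 above vehicle without passing the test. The 12 h calls were lost without 12 h replicate 2 (0.22 and 0.34), and that of Col3a1 also without 12 h replicate 1 (0.26) or vehicle replicate 3 (0.18).

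Col16a1 read 9.32 and 9.24 at 24 h against 8.81 to 8.89 under vehicle, higher by 0.43 (SE 0.09, adjusted p = 5.91e-04). Col15a1 read 6.62 and 6.21 against 6.86 to 6.95, a difference of -0.50 (SE 0.15, adjusted p = 0.0146), which was -0.29 (adjusted p = 0.279) without 24 h replicate 2. Col4a5 rose by 0.25 (adjusted p = 0.0314) and Col2a1 by 0.22 (adjusted p = 0.0402), and each call was lost without either 24 h array (0.27 and 0.22 for Col4a5, 0.18 and 0.27 for Col2a1). Col4a1 and Col4a2 read 7.38 and 7.38 and 5.41 and 5.56 at 24 h, within the range of their vehicle arrays (differences -0.02 and 0.11). Most other calls before 24 h in this line depended on single arrays. At 6 h Col2a1 (0.26) and Col5a2 (0.22) were called beside Col8a1. Col2a1 lost its call without 6 h replicate 1 (0.19) or vehicle replicate 2 (0.22), and Col5a2 without either 6 h array (0.24 and 0.20) or vehicle replicate 2 or 3 (0.23 and 0.16). At 12 h Col1a1 (0.34), Col6a1 (0.30), Col6a2 (0.26), Col5a2 (0.28) and Col15a1 (-0.57) were called and lost the call without 12 h replicate 2, with 0.30, 0.26, 0.26, 0.25 and -0.39. Col16a1 (0.35) kept it but had 0.34 (adjusted p = 0.0752) in the authors' deposited ratio table, and Col4a5 (0.23) had an adjusted p of 0.0497. At 6 h the dim Col10a1 was called with 0.27, which was 0.15 (adjusted p = 0.33) without 6 h replicate 2.

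Whether the null lines responded differently at 24 h was tested as an interaction, the Tsc1-null change minus the Tsc2-null change. It was called for 8 of 42 collagens (19%), 2 positive and 6 negative, against 20.2% of all genes, 8.13% positive and 12% negative. Col8a1 had 2.22 (SE 0.13, adjusted p = 1.92e-10), having risen by 2.61 in Tsc1-null and 0.39 in Tsc2-null cells, and Col11a1 had 0.84 (SE 0.17, adjusted p = 0.00106), having fallen by 0.62 in Tsc2-null cells with 0.22 in Tsc1-null cells. Col24a1 had -2.14 (SE 0.23, adjusted p = 4.45e-07), since its rise of 2.28 in the Tsc2-null line stood against 0.14. Col15a1 moved in opposite directions, 0.52 and -0.50, for an interaction of -1.01 (SE 0.21, adjusted p = 0.00131). Col6a3 had -0.88 (SE 0.16, adjusted p = 2.94e-04), Col6a2 -0.69 (SE 0.10, adjusted p = 1.7e-05), Col12a1 -0.69 (SE 0.13, adjusted p = 4.75e-04) and Col5a1 -0.53 (SE 0.13, adjusted p = 0.00513). The Col5a1 value was -0.39 (adjusted p = 0.0667) without Tsc2-null 24 h replicate 1, and the other 7 calls held without any 1 array. One of the 3 Col8a1 probe sets gave 0.32 (adjusted p = 0.289). Under 4 other settings 13 collagens were called in place of 8.

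**Figure D4:**
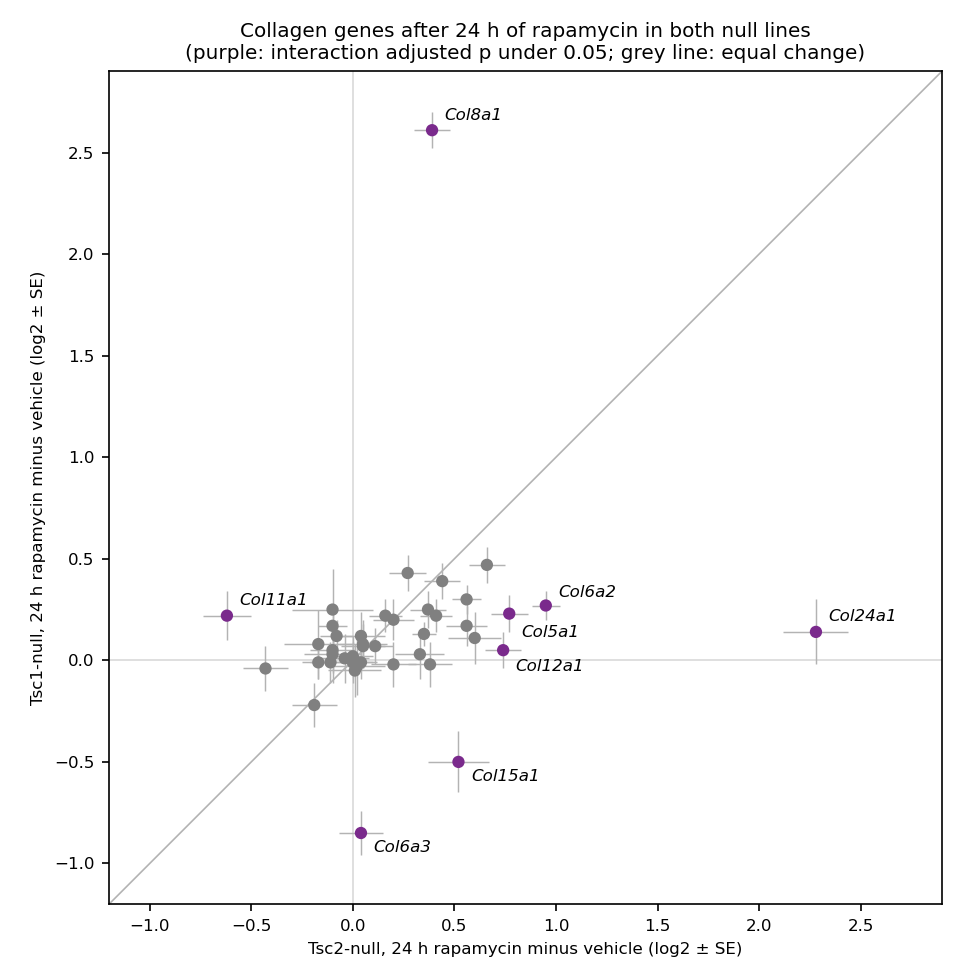
Log2 change from vehicle after 24 h of rapamycin (with standard errors) in Tsc2-null (horizontal) and Tsc1-null (vertical) cells for the 42 collagen genes; purple points have an interaction with an adjusted p under 0.05 and the grey diagonal marks equal change. Col8a1 at 0.39 and 2.61 lies far above the diagonal, and Col24a1 at 2.28 and 0.14 far below it.

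Collagen I, by contrast, gave interactions that did not pass the test, of -0.05 (SE 0.12, adjusted p = 0.85) for Col1a1 and -0.23 (SE 0.09, adjusted p = 0.0722) for Col1a2. On the other 2 Col1a2 probe sets the interaction was -0.41 and -1.43, both called when every probe set was tested. Col3a1 had 0.27 (SE 0.10, adjusted p = 0.0541), and Col5a3, which rose in both lines, had -0.19 (adjusted p = 0.32).

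Enzymes that build collagen were followed in lists of 18 measured folding and modification genes, 11 processing and crosslinking genes, 7 receptors and 6 collagen-cleaving proteases. In Tsc2-null vehicle cells 13 of the 42 were higher and 20 lower than wild type, against 23.6% and 21.3% of all genes, and in Tsc1-null cells 16 were higher and 14 lower, against 21.3% and 20.8%. After 24 h of rapamycin 20 rose and 8 fell in Tsc2-null cells, against 17.4% and 18.1% of all genes, and 11 rose and 12 fell in Tsc1-null cells, against 11.6% and 18%. Of the folding list 9 were higher and 5 lower in Tsc2-null cells and 12 higher and 3 lower in Tsc1-null cells. Of the processing list 7 rose and 0 fell at 24 h in Tsc2-null cells, and 4 rose and 0 fell in Tsc1-null cells. Of the receptors 0 were higher and 4 lower in Tsc2-null vehicle cells, and 1 was higher and 4 lower in Tsc1-null cells.

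**Figure D5:**
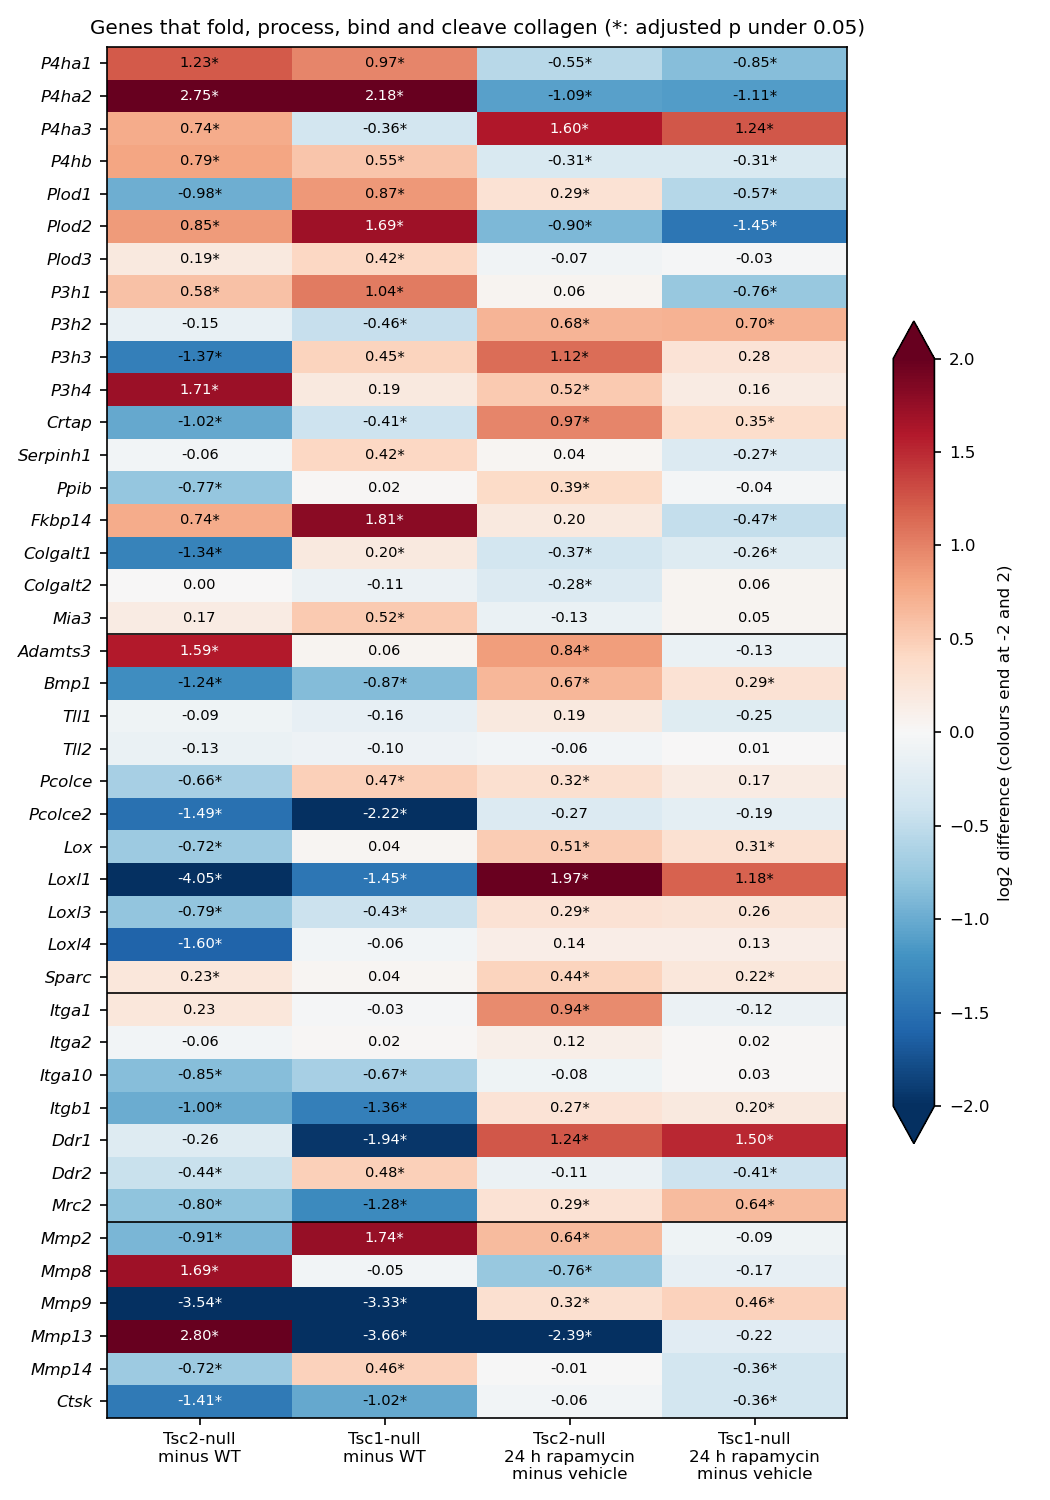
Log2 differences (printed and coloured, colours ending at -2 and 2; an asterisk marks an adjusted p under 0.05) for 42 genes that fold, process, bind or cleave collagen, in 4 comparisons. P4ha1, P4ha2 and Plod2 are higher in both null lines under vehicle and fell in both with rapamycin, and Loxl1 shows the reverse.

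The prolyl hydroxylase subunits P4ha1 and P4ha2, which stabilise the triple helix, were higher in both null lines and fell with rapamycin. P4ha2 read 9.28 to 9.37 on the wild-type, 12.05 to 12.08 on the Tsc2-null and 11.46 to 11.53 on the Tsc1-null vehicle arrays, and 10.96 to 10.99 and 10.31 to 10.45 in the null lines at 24 h. Its differences from wild type were 2.75 (adjusted p = 2.29e-18) and 2.18 (1.7e-16), and its changes at 24 h -1.09 (5.61e-10) and -1.11 (9.19e-10). P4ha1 was higher by 1.23 and 0.97, and its changes at 24 h were -0.55 and -0.85. Plod2, the lysyl hydroxylase of collagen ends, was higher by 0.85 and 1.69, with changes of -0.90 and -1.45, all with an adjusted p under 0.05. The 24 h levels of P4ha2 remained above wild type in both lines. While these hydroxylases fell, Col1a1 was called higher in both lines. Its Tsc1-null call was lost on the mean of its probe sets and in the authors' deposited ratio table. The partner chain Col1a2 was called higher in Tsc2-null cells only.

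The crosslinking enzyme Loxl1 ran the other way. It read 12.21 to 12.37 on the wild-type, 8.17 to 8.29 on the Tsc2-null and 10.69 to 10.92 on the Tsc1-null vehicle arrays, and 10.08 to 10.30 and 11.93 to 12.05 in the null lines at 24 h. It was lower than wild type, with differences of -4.05 (adjusted p = 1.59e-20) and -1.45 (1.06e-12), and rose by 1.97 (2.74e-13) and 1.18 (1.45e-09). Lox, its better known relative, differed from wild type by -0.72 in Tsc2-null cells and by 0.04 in Tsc1-null cells (adjusted p = 0.671), and rose by 0.51 and 0.31 at 24 h. Serpinh1, the collagen chaperone HSP47, differed from wild type by 0.42 in Tsc1-null and -0.06 in Tsc2-null cells, and fell by 0.27 at 24 h in the Tsc1-null line.

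Fkbp14, a prolyl isomerase of the endoplasmic reticulum, was higher by 0.74 and 1.81 in the null lines. Mmp13, a collagenase, was higher in Tsc2-null cells by 2.80 (adjusted p = 2.77e-14) and lower in Tsc1-null cells, with a difference of -3.66 (3.07e-16) against values of 3.69 to 3.78, well under 6.67, whose size is uncertain, and in Tsc2-null cells it fell by 2.39 at 24 h. Mmp9, a gelatinase, was lower in both, with -3.54 and -3.33 at null-line means under 6.67, and the gelatinase Mmp2 was higher in Tsc1-null cells by 1.74. P4ha3, under 6.67 in all vehicle groups, rose at 24 h by 1.60 and 1.24 and the collagen receptor Ddr1 by 1.24 and 1.50 in Tsc2-null and Tsc1-null cells. These lists were drawn up with earlier results of these data known, and the counts describe them without a test of the list.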

How the data were processed

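The deposited series table held log2 expression of 45101 Affymetrix probe sets on 25 arrays, and the submitters' processing notes name RMA and limma with no version, so the versions used are not given here. RMA normalizes quantiles across arrays, so a shift shared by all genes would not show. A second deposited table held log2 ratios whose median over the 3 wild-type columns is 0, with 61.4% of probe sets at 0 on all arrays, and served as an alternative. GEO's platform annotation named 1 gene for 34945 probe sets, several for 932 and none for 9160, and left 64 controls out. Each of 18193 genes was read by its probe set with the highest mean.

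Differences were fitted with limma 3.58.1 in R 4.3.3, with 1 mean per group, 14 residual degrees of freedom, two-sided tests and Benjamini-Hochberg adjustment over all genes within each of 12 comparisons, at a threshold of 0.05. The number of arrays, 2 or 3 per group, limits the precision. The script was tested on simulated data. Alternatives were other array scalings, an offset, a filter on dim genes, other choices of probe set, other variance models, the ratio table, a replicate block and leaving out each array. Any called collagen could be named, with levels for chains of types I, III to VI, VIII, XI, XII, XV and XVIII and for the 3 largest changes in each direction. Members, lists and this rule were chosen with earlier results of these data known. Promoter windows came from RefSeq on GRCm38.p6, found by gene identifier for 33 of 42 genes.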

Additional observations from a re-analysis of the deposited data

Results flagged for a closer look

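For 8 collagens the change with 24 h of rapamycin differed between the null lines by the interaction term, given here as the Tsc1-null minus the Tsc2-null change on the log2 scale. It was positive for Col8a1 (2.22) and Col11a1 (0.84). It was negative for Col24a1 (-2.14), Col15a1 (-1.01), Col6a3 (-0.88), Col6a2 (-0.69), Col12a1 (-0.69) and Col5a1 (-0.53). Each line is 1 line with its own p53 state, and the free-text label of the Tsc1-null 24 h arrays gives 14 h, so a line, genotype or time effect cannot be told apart here. No group had more than 3 arrays, so single arrays were not screened for outliers.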

How the results depend on the processing

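Counts of called collagens under other settings kept within 1.5 times the reported count in 99 of 120 cases. With arrays centred on their medians, 5 were called at 6 h in the Tsc2-null line and 1 in the Tsc1-null line. In Tsc2-null cells at 2 h, 2 were called with 64 added to the linear values, on the mean of all probe sets, with every probe set tested, with a trended robust variance and in the ratio table, and 0 with only the compared groups in the fit. In Tsc1-null cells at 2 h, 2 were called on the mean of all probe sets and 3 with every probe set tested. The interaction was called for 13 with 64 added, without the dimmest 40% of genes, on the mean of all probe sets and with a trended robust variance. With only the compared groups in the fit, 2 were called at 6 h and 7 at 24 h in Tsc1-null cells. The ratio table, which holds 23 of the 42 collagens off the floor, gave 13 between the null lines, 10 at 12 h in the Tsc2-null line and 6 at 24 h in the Tsc1-null line.

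Directions reversed in 3 of 1408 cases outside leaving out arrays. Col5a1 in Tsc1-null against wild-type cells was 0.25 (limma adjusted p = 0.00724) on the mean of all probe sets. In the ratio table Col1a2 at 12 h was -0.07 (adjusted p = 0.876) and Col4a1 at 24 h was -0.1 (adjusted p = 0.496) in Tsc2-null cells. The cause was not tested.

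Leaving out each array gave 21 to 23 called in Tsc2-null against wild type, 19 to 22 in Tsc1-null against wild type and 19 to 21 between the null lines. In Tsc2-null cells it gave 0 to 0 at 2 h, 4 to 10 at 6 h, 12 to 16 at 12 h and 14 to 18 at 24 h. In Tsc1-null cells it gave 0 to 0 at 2 h, 2 to 5 at 6 h, 4 to 12 at 12 h and 8 to 14 at 24 h, and for the interaction 7 to 12. Of 823 single calls so retested, 724 kept side and direction.

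Replicate numbers recur across groups. Deviations of same-numbered arrays correlated at -0.29 to 0.23, and in no comparison with 3 pairs were all above 0.1. At 6 h in the Tsc2-null line both pairs were above it, at 0.13 and 0.23. Deviations in a group of 2 arrays mirror each other, so these correlations cannot decide whether rapamycin and vehicle arrays were paired. The main fit did not take the numbers as pairs. With the replicate number as a block, 0 collagens were called at 2 h and 6 at 6 h in Tsc2-null cells, and no other count moved by over 1.5 times. Dim genes limit what can be read: 10 collagens lay below 6.67 in all groups.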
